A study of Homo sapiens with 4 samples.

Results

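The genes described here are 47 components of the machinery that copies DNA before a cell divides, chosen by gene symbol from a fixed list and read from a gene table of 41507 genes. All 47 symbols were found in the table, and all 47 had a mean of at least 1 RPKM over the 4 libraries of each line. RNA was sequenced from SU-DHL-5 and Toledo, which are established cell lines of diffuse large B-cell lymphoma (DLBCL). Cells of each line received either the vehicle DMSO or JQ1 at 1 µM, for 6 h by the sample labels, while a figure legend of the study gives a longer time. JQ1 inhibits BET proteins by occupying the bromodomains with which they bind acetylated histones. There were 4 groups of 1 sample each, with no genetic change named in the labels, and each sample had 2 libraries whose relation the labels do not give. The libraries of a sample were averaged and counted as 1 replicate (n = 1), so a difference within a line has no test and is given with the spread of libraries. Over both lines, which give 2 pairs of samples, JQ1 was tested with limma.

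Replication is prepared in G1 phase, when the origin recognition complex (ORC) binds DNA and, with CDC6 and CDT1, loads the MCM2-7 helicase as an inactive ring. In S phase, the kinase of CDC7 and DBF4, with MCM10, CDC45 and the GINS complex, turns loaded rings into moving forks. There the polymerases alpha, delta and epsilon copy both strands with the help of the sliding clamp PCNA, its loader RFC and the single-strand binding complex RPA. FEN1 and LIG1 join the short Okazaki fragments of the lagging strand, and RRM1, RRM2, TYMS and TK1 supply deoxynucleotides. Many of these genes are textbook targets of the E2F transcription factors, which act at the passage from G1 to S phase, and rapidly dividing lymphoma cells express them abundantly.

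The unit of level is RPKM, reads scaled to the length of a feature and to library depth, which allows levels to be compared between genes. Libraries held 14617583 to 17679831 mapped reads, and the members had between 541 and 37185 reads over both DMSO libraries of a line, so that counting error was small for most of them. All 6 B-cell markers examined reached 1 RPKM, with a summed level of 884 to 999 RPKM in DMSO and 629 to 637 RPKM in JQ1 in SU-DHL-5, and of 885 to 947 RPKM and 609 to 627 RPKM in Toledo. With JQ1, 5 of these 6 markers were lower by at least 1.5-fold for SU-DHL-5 and 4 for Toledo, and their part in the results was not tested. All 3 epithelial markers were at 0 RPKM in every library, the summed T-cell and monocyte markers stayed at or below 1.29 RPKM, and the 3 fibroblast markers summed to at most 5.72 RPKM. These low sums moved with JQ1 as well. The fibroblast sum was 5.14 to 5.72 RPKM in DMSO and 0.616 to 0.773 RPKM in JQ1 for SU-DHL-5, and 2.29 to 2.72 RPKM and 0.251 to 0.397 RPKM for Toledo. It was mostly DCN in SU-DHL-5, at 5.66 and 5.09 RPKM in DMSO. In Toledo it was mostly COL1A1, at 2.29 and 2.72 RPKM in DMSO, and DCN was at 0 RPKM. In SU-DHL-5 the T-cell sum was 1.0 to 1.24 RPKM in DMSO and at most 0.12 RPKM in JQ1, and the monocyte sum was 1.25 to 1.29 RPKM and at most 0.339 RPKM. In DMSO these sums were mostly CD3E (1.09 and 0.934 RPKM) and LYZ (1.09 and 1.2 RPKM). The part of these markers in the results was not tested. HEXIM1, long used as a marker of BET inhibitor action, was higher with JQ1 by 2.43 on the log2 scale in SU-DHL-5 and by 2.57 in the Toledo line. MYC, the oncogenic transcription factor, had log2 ratios of -0.29 and 0.03. The DMSO libraries of Toledo differed from each other with feature length, with a median log2 of library 2 over library 1 of -0.20 in the shortest of 20 length classes and 0.34 in the longest. The part of this difference in the results for Toledo was not tested beyond the values given without each of these libraries and after centring on length.

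With JQ1, 26 of the 47 replication genes lay below DMSO without overlap of libraries in both lines, few by a large factor. The members of one complex did not move by the same amount. The ratio used throughout is log2((JQ1 + 0.1)/(DMSO + 0.1)) of the mean RPKM of a sample. The median ratio of the 47 members was -0.22 for SU-DHL-5, beside 0.02 for all genes tested, and -0.36 for Toledo, beside -0.06. The DMSO libraries were both above the JQ1 libraries for 27 of 47 members (57.4%) in SU-DHL-5, where 38.0% of all genes did so. In Toledo this held for 36 members (76.6%), where 42.9% of all genes did so. For 26 members (55.3%) it held in both lines, beside 28.9% of the genes tested in both. Conversely, the DMSO libraries were both under the JQ1 libraries for 13 members (27.7%) in SU-DHL-5, under the 42.3% of all genes, and for 4 members (8.51%) in Toledo, under the 29.7% of all genes. After scaling each line by its median ratio, the members below DMSO were 27 in SU-DHL-5 (57.4%, beside 40.1% of all genes) and 31 in Toledo (66.0%, beside 37.7%). Centred on feature length, they were 28 (59.6%, beside 39.5%) and 30 (63.8%, beside 36.9%). In the RNA of whole cultures, fewer cells that express a gene and less of its RNA per cell cannot be told apart.

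**Figure D1:**
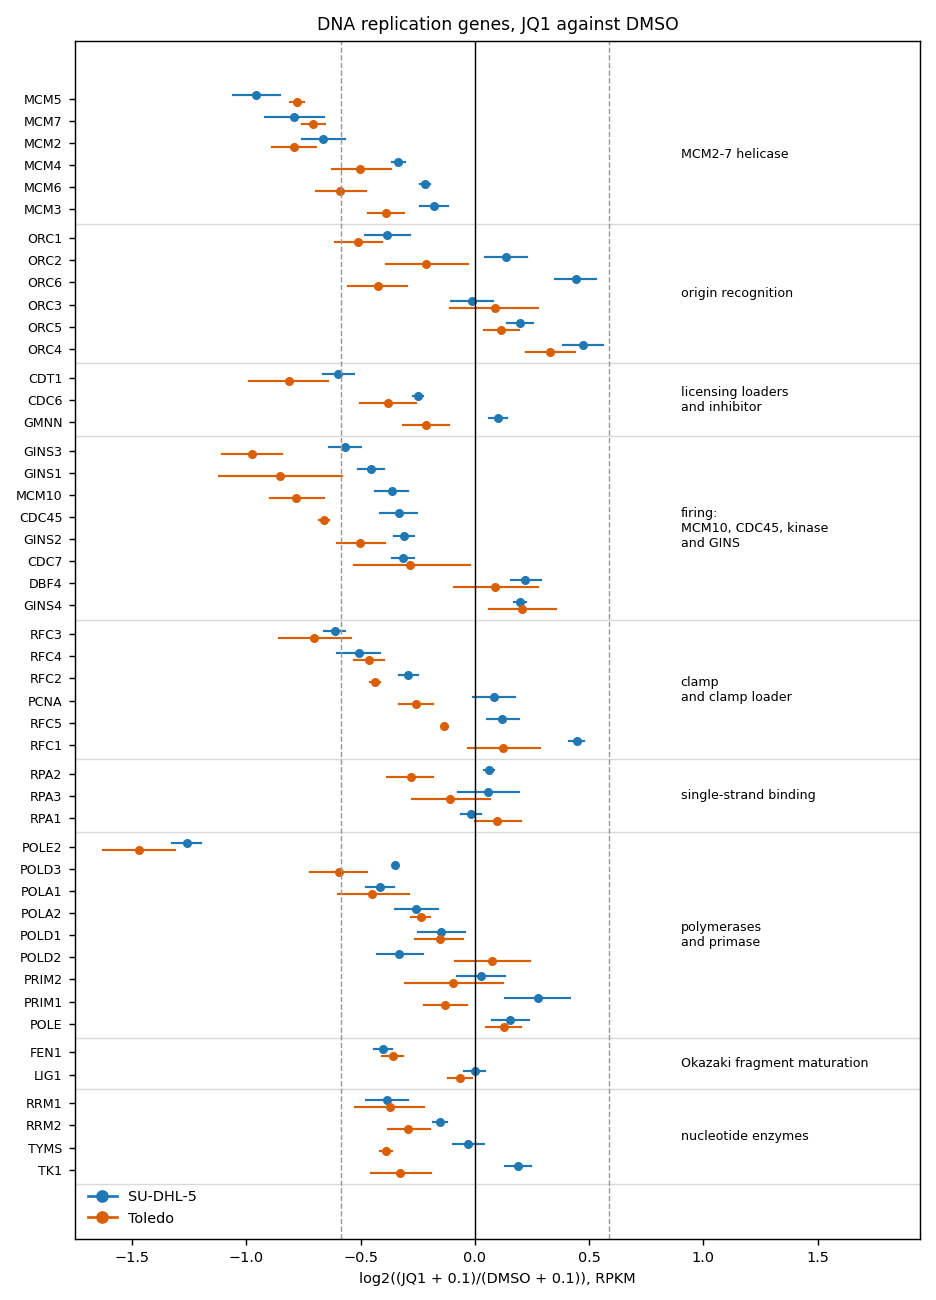
The log2 ratio of JQ1 to DMSO (pseudocount of 0.1 RPKM) for each of the 47 replication genes, grouped by role, in SU-DHL-5 (blue) and Toledo (orange). Points are ratios of sample means, lines run from the lowest to the highest ratio of a JQ1 library to a DMSO library, and dashed lines mark 1.5-fold. POLE2 lay farthest to the left in both lines, all 6 MCM2-7 genes lay left of 0, and ORC4 lay farthest right.

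Fewer members passed a size limit. A gene was called lower or higher where the change was at least 1.5-fold and the JQ1 libraries were both beyond the DMSO libraries. In SU-DHL-5, 6 members (12.8%) were called lower, which is close to the 12.1% of all genes and so no result about the members. In Toledo 12 members (25.5%) were called lower, beside 15.8% of all genes, but with library 1 of each sample alone the shares were 17.0% and 15.1%. None was called higher in either line, although 8.72% of all genes in SU-DHL-5, 6.68% in Toledo and 3.65% in both lines were. The 6 genes called in SU-DHL-5 (MCM2, MCM5, MCM7, CDT1, RFC3 and POLE2) were all among the 12 called in Toledo, so that 12.8% of members were lower in both lines, beside 7.39% of all genes. Toledo added MCM6, MCM10, CDC45, GINS1, GINS3 and POLD3. Members just inside the limit in SU-DHL-5 were RFC3 (1.53-fold lower) and CDT1 (1.51-fold), and just outside were GINS3 (1.48-fold) and RFC4 (1.42-fold). In Toledo, POLD3 (1.51-fold) and MCM6 (1.5-fold) lay just inside, and ORC1 (1.43-fold) and GINS2 (1.42-fold) just outside. At a limit of 2-fold, 1 member (2.13%), POLE2, was called in each line, fewer than the 5.54% of all genes in SU-DHL-5 and the 6.81% for Toledo.

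Over both lines, a limma fit of log2(RPKM + 0.1) with the cell line as a block took the difference between lines as its error. It called 20 of 47 members (42.6%) lower at a Benjamini-Hochberg adjusted p under 0.05, beside 17.4% of all 8495 genes. No member was called higher, beside 12.7% of all genes. At an unadjusted p under 0.05, 2 members (4.26%) were higher, beside 18.9% of all genes. The 20 were MCM2, MCM4, MCM5, MCM6, MCM7, MCM10, ORC1, CDT1, CDC45, GINS1, GINS2, GINS3, RFC2, RFC3, RFC4, POLA1, POLD3, POLE2, FEN1 and RRM1. POLE2 had the smallest adjusted p, 2.23e-05, with a mean log2 change of -1.37 and a standard error of 0.15, and was lower in both lines. Each gene had 1 residual degree of freedom beside a median of 13 borrowed from the other genes, so these p-values rest mostly on the spread that genes share.

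The spread between libraries of a sample was smaller than the typical change. The median size of log2 of library 2 over library 1 across members was 0.071 for the DMSO and 0.042 for the JQ1 sample of SU-DHL-5, against a median size of the JQ1 ratio of 0.29. For Toledo the spread was 0.13 in DMSO and 0.071 in JQ1, against 0.36. In the DMSO sample of Toledo, 34 of 47 members were higher in library 2, and the largest gap was 0.35 for CDC7.

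POLE2, the second subunit of DNA polymerase epsilon, the leading-strand enzyme, was the lowest member. In SU-DHL-5 it stood at 13.9 and 14.4 RPKM in the DMSO libraries and at 5.67 and 6.01 RPKM in the JQ1 libraries. In Toledo it stood at 9.42 and 10.2 RPKM in DMSO and at 3.73 and 3.22 RPKM in JQ1. The groups were far apart in both lines, and the log2 ratios were -1.26 (95% interval of the reads -1.46 to -1.10, counting error only) and -1.47 (-1.72 to -1.27). These ratios rested on 900 reads in DMSO and 353 in JQ1 in SU-DHL-5, and on 645 and 219 in Toledo.

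MCM5 and MCM7, both subunits of the helicase ring, came next among the genes called in both lines. MCM5 stood at 179 and 161 RPKM in DMSO and at 85.6 and 88.7 RPKM in JQ1 in SU-DHL-5, and at 87.5 and 86.3 RPKM and 49.9 and 51.3 RPKM in Toledo. The change on the log2 scale was -0.96 (-1.0 to -0.92) in the first line and -0.78 (-0.83 to -0.73) in the second. MCM7 was one of the most abundant members, at 235 and 208 RPKM in DMSO and 124 and 132 RPKM in JQ1 in SU-DHL-5, and at 302 and 298 RPKM and 179 and 189 RPKM in Toledo. Its ratio was -0.79 (-0.82 to -0.76) and -0.71 (-0.73 to -0.68), and the opposite-strand gene AP4M1 covers 7.58% of its exonic bases. In both genes and both lines the DMSO and JQ1 libraries did not overlap.

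MCM2, another subunit of the ring, stood at 125 and 116 RPKM in DMSO and at 73.8 and 77.9 RPKM in JQ1 in SU-DHL-5, and at 106 and 112 RPKM and 60.3 and 65.6 RPKM in Toledo. The ratios were -0.66 (-0.71 to -0.63) and -0.79 (-0.83 to -0.75). Of the exonic bases of MCM2, 30.7% are shared with AC023593.1 on the opposite strand, and whether the counting used the strand is not given in the sources used here. RFC3, a subunit of the clamp loader, stood at 112 and 114 RPKM in DMSO and 72.2 and 75.5 RPKM in JQ1 in SU-DHL-5, and at 46.8 and 54.7 RPKM and 32.1 and 30.1 RPKM in Toledo, with ratios of -0.61 (-0.66 to -0.57) and -0.70 (-0.77 to -0.63). CDT1, which brings the helicase to the ORC-bound origin, stood at 61.9 and 56.8 RPKM in DMSO and 39.3 and 38.9 RPKM in JQ1 in SU-DHL-5, and at 101 and 93.3 RPKM and 50.8 and 59.6 RPKM in Toledo, with ratios of -0.60 (-0.66 to -0.53) and -0.81 (-0.87 to -0.77). All 3 genes were thus lower with no overlap of libraries, although RFC3 and CDT1 were close to the limit in SU-DHL-5.

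**Figure D2:**
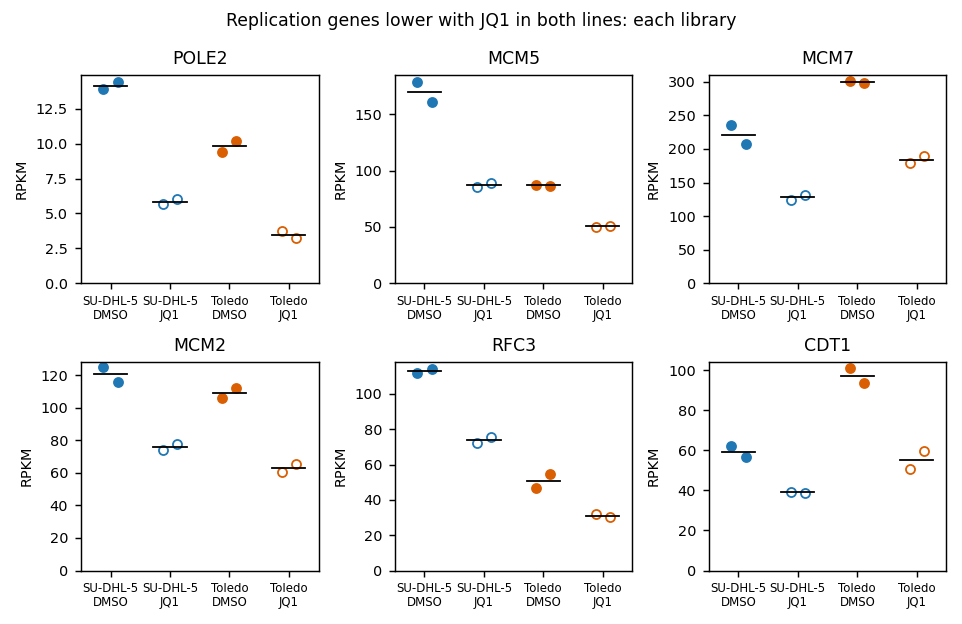
RPKM in each library for the 6 replication genes called lower in both lines, with DMSO as filled and JQ1 as open circles, SU-DHL-5 in blue, Toledo in orange and the sample mean as a bar. Each axis starts at 0, and in all 6 genes the JQ1 circles lay below the DMSO circles of their line.

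The promoters of these genes were examined because they were called lower in both lines. Sequences come from RefSeq on GRCh38.p14, in which 41 of the 47 members had an entry, and reach from 250 bases before to 50 bases from the annotated start. The words searched were chosen with the members' values known. They were TTTCGCGC, TTTGGCGC and TTTCCCGC on either strand as forms of the E2F site, and CACGTG, the E-box that MYC and related factors bind, which reads the same on both strands. The E2F words do not overlap the E-box, while TTTCGCGC can overlap itself on the opposite strand. The 130 bases from 100 before to 30 from the start are shown for the 5 members called lower in both lines that had an entry, with these words in capitals. Their positions are chr3:127598311-127598440 (plus strand) for MCM2, chr7:100101368-100101497 (minus) for MCM7, chr16:88803689-88803818 (plus) for CDT1, chr13:33818049-33818178 (plus) for RFC3 and chr14:49688185-49688314 (minus) for POLE2.
MCM2: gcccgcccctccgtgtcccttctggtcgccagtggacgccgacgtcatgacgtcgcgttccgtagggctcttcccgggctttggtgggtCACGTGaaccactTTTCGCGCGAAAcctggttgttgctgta
MCM7: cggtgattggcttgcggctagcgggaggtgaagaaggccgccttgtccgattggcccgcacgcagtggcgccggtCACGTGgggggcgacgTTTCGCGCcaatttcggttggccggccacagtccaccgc
CDT1: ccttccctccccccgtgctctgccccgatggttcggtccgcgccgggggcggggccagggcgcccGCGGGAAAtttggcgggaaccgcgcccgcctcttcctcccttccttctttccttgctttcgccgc
RFC3: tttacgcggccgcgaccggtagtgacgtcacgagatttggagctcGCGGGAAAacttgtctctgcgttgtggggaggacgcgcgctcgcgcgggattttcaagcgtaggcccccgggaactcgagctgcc
POLE2: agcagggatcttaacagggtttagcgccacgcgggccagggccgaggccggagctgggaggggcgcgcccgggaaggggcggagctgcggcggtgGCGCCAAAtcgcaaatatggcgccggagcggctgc
An E2F word was present in all 5, and within 9 bases of the start, counted as 1, in MCM2, MCM7 and POLE2. MCM2 has the word on both strands at bases 3 and 7, and its E-box begins 11 bases before the start. In MCM7 the E-box lies 25 bases before the start.

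Among all 35116 promoters provided, 2.74% held an E2F word. Of the 8495 genes tested in both lines 6682 had an entry, and 5.48% of these held the word. It was found in 18 of 41 members (43.9%). By response, it was found in 13 of the 23 members (56.5%) whose JQ1 libraries lay below DMSO in both lines, and in 5 of the other 18 (27.8%), which were ORC3, PCNA, POLE, LIG1 and TYMS. The share by response among all genes was not counted, so these shares have no background beside them, and their difference was not tested. An E-box was found in 7.26% of all promoters, in 10.6% of the genes tested that had an entry and in 5 of 41 members (12.2%), which were MCM2, MCM7, GMNN, RPA1 and FEN1. For contrast, the same windows follow for GINS3, which was among the lowest members, and for 3 members that were not lower in SU-DHL-5, namely POLE, RFC1 and ORC6. They lie at chr16:58392371-58392500 (plus), chr12:132687313-132687442 (minus), chr4:39366333-39366462 (minus) and chr16:46689559-46689688 (plus).
GINS3: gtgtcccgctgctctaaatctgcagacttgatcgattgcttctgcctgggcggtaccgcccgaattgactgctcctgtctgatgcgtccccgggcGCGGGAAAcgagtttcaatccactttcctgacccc
POLE: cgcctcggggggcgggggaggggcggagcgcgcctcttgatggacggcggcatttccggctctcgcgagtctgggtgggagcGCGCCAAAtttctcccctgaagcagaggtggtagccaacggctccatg
RFC1: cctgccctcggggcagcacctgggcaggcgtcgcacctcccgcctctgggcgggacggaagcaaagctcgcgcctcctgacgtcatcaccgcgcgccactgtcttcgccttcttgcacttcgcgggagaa
ORC6: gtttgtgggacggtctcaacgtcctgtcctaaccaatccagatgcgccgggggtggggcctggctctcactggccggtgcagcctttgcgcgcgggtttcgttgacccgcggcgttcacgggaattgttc
GINS3 and POLE carry an E2F word 5 and 18 bases before the start, and the windows of RFC1 and ORC6 hold neither word. A word found in this way is a description of the sequence, and no match says only that these letters are not in the window.

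The RNA of the MCM2-7 helicase genes lay below DMSO throughout, though not every subunit was called lower. All 6 subunits lay below DMSO without overlap in both lines, 3 of them were called for SU-DHL-5 and 4 for Toledo, and the median ratios were -0.50 and -0.65. The subunits form 1 ring in equal numbers, yet in SU-DHL-5 their ratios ran from -0.96 for MCM5 to -0.18 for MCM3, a spread of 0.78 on the log2 scale. In Toledo they ran from -0.79 for MCM2 to -0.39 for MCM3, a spread of 0.40. MCM6 stood at 131 and 129 RPKM in DMSO and 111 and 113 RPKM in JQ1 in SU-DHL-5, a ratio of -0.22, and at 70.7 and 80.5 RPKM and 50.8 and 49.6 RPKM in Toledo, a ratio of -0.59.

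ORC, the platform on which the helicase is loaded, behaved differently. No subunit was called lower or higher in either line, and the 6 subunits had median ratios of 0.17 (SU-DHL-5) and -0.06 (Toledo). ORC1, the subunit known to be made and destroyed with each cell cycle, was the lowest, at -0.38 and -0.51. ORC4 was the member with the highest mean ratio, and it was also the least abundant member in DMSO in both lines. It stood at 4.04 and 4.53 RPKM in DMSO and 6.01 and 5.94 RPKM in JQ1 in SU-DHL-5, and at 4.00 and 4.47 RPKM and 5.45 and 5.24 RPKM in Toledo. It was higher without overlap in each line, and the ratio was 0.47 (0.36 to 0.60) and 0.33 (0.22 to 0.46). ORC5, a core subunit, stood at 16.0 and 15.1 RPKM in DMSO and 17.7 and 18.0 RPKM in JQ1 in SU-DHL-5, and at 22.2 and 24.3 RPKM and 25.0 and 25.4 RPKM in Toledo, again higher without overlap, with ratios of 0.20 and 0.12. ORC3, a core subunit, overlapped in both lines, at 9.72 and 10.1 RPKM in DMSO and 9.41 and 10.3 RPKM in JQ1 in SU-DHL-5, and at 7.15 and 7.69 RPKM and 7.13 and 8.67 RPKM in Toledo.

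ORC2 and ORC6 went opposite ways in the 2 lines. ORC6, the smallest subunit, stood at 26.0 and 27.9 RPKM in DMSO and 37.6 and 35.6 RPKM in JQ1 in SU-DHL-5, a ratio of 0.44 (0.34 to 0.54). In Toledo it stood at 42.4 and 44.1 RPKM in DMSO and 34.5 and 30 RPKM in JQ1, a ratio of -0.42 (-0.51 to -0.33). ORC2, a core subunit, stood at 16.2 and 15.8 RPKM in DMSO and 16.7 and 18.6 RPKM in JQ1 in SU-DHL-5 (ratio 0.14), and at 4.48 and 5.23 RPKM and 4.38 and 3.97 RPKM in Toledo (ratio -0.21). The libraries did not overlap in any of these 4 pairs of groups, although for ORC2 the nearest libraries almost met.

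Of the loading factors, CDT1 was called lower in both lines and CDC6, the ATPase that works with it, lay below DMSO in both at -0.25 and -0.38. GMNN (geminin), the inhibitor that binds CDT1 after origins have fired, was slightly above DMSO in SU-DHL-5, at 84.1 and 88.5 RPKM in DMSO and 92.8 and 92.3 RPKM in JQ1 (ratio 0.10). In Toledo it was below, at 39.6 and 40.3 RPKM in DMSO and 36.5 and 32.4 RPKM in JQ1 (ratio -0.21).

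The 8 firing factors had a median ratio of -0.32 in SU-DHL-5, where none was called, and of -0.58 in Toledo, where MCM10, CDC45, GINS1 and GINS3 were called lower. GINS3 stood at 26.1 and 24.3 RPKM in DMSO and 17.2 and 16.7 RPKM in JQ1 in SU-DHL-5, and at 8.11 and 9.04 RPKM and 4.47 and 4.15 RPKM in Toledo. Its libraries were apart in both lines, with ratios of -0.57 (-0.67 to -0.47) and -0.98 (-1.18 to -0.80), and 16.5% of its exonic bases are shared with AC009118.2 on the opposite strand. GINS2, the most abundant member in DMSO in Toledo, stood at 144 and 148 RPKM in DMSO and 120.0 and 115 RPKM in JQ1 in SU-DHL-5, and at 386 and 350.0 RPKM and 266 and 254 RPKM in Toledo, with ratios of -0.31 and -0.50. GINS1 was at -0.45 and -0.85, MCM10, which helps start the helicase, at -0.36 and -0.78, and CDC45, the helicase cofactor, at -0.33 and -0.66.

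GINS4 stood apart from the other 3 subunits of its complex. It stood at 13.1 and 13.0 RPKM in DMSO and 14.7 and 15.2 RPKM in JQ1 in SU-DHL-5, and at 8.33 and 9.88 RPKM and 10.7 and 10.3 RPKM in Toledo. Both JQ1 libraries were above both DMSO libraries in each line, with a ratio of 0.20 in both, so that the subunits of GINS were spread over 0.77 on the log2 scale for SU-DHL-5 and 1.18 for Toledo. AC009630.2 on the opposite strand covers 21.2% of the exonic bases of GINS4. The kinase and its activator also differed, since CDC7 was at -0.32 and -0.28 while DBF4, which activates it, stood at 16.7 and 18.2 RPKM in DMSO and 20.3 and 20.4 RPKM in JQ1 in SU-DHL-5 (ratio 0.22). In Toledo DBF4 overlapped, at 18.4 and 21.8 RPKM in DMSO and 22.3 and 20.4 RPKM in JQ1.

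PCNA and the subunits of its loader did not move alike. RFC3 was lower in both lines, RFC4 was at -0.51 and -0.46 and RFC2 at -0.29 and -0.44, while RFC1, the large subunit, was not lower in either. RFC1 stood at 33.9 and 34.8 RPKM in DMSO and 46.4 and 47.3 RPKM in JQ1 in SU-DHL-5, without overlap and with a ratio of 0.45 (0.39 to 0.50). In Toledo its libraries overlapped, at 13.5 and 16.4 RPKM in DMSO and 16.4 and 16.0 RPKM in JQ1, and the ratio of 0.12 became -0.01 without DMSO library 1. From RFC3 to RFC1 the loader was spread over 1.06 (SU-DHL-5) and 0.82 (Toledo). PCNA, the most abundant member in SU-DHL-5, stood at 402 and 433 RPKM in DMSO and 430.0 and 454 RPKM in JQ1 there, with overlap, and at 242 and 253 RPKM and 213 and 201 RPKM in Toledo, below without overlap (ratio -0.26). RPA, which coats single-stranded DNA, hardly moved in SU-DHL-5, where its 3 subunits lay between -0.02 and 0.06. In Toledo RPA2 was at -0.28 and the libraries of RPA1 and RPA3 overlapped.

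Of the 9 polymerase and primase genes, 6 (66.7%) lay below DMSO in each line. For SU-DHL-5 this share stood beside 38.0% of all genes, and for Toledo beside 42.9%. POLD2 was among the 6 only for SU-DHL-5, and PRIM1 only for Toledo. Besides POLE2, POLD3, an accessory subunit of polymerase delta, was at -0.35 in SU-DHL-5 and was called in Toledo at -0.60. POLA1 and POLA2, of the polymerase that makes the primers with primase, were at -0.41 and -0.26 in SU-DHL-5 and at -0.45 and -0.24 in Toledo, and 53.7% of the exonic bases of POLA2 are shared with AP000944.2 on the same strand. The catalytic subunit of polymerase epsilon, POLE, contrasted with POLE2. It stood at 11.1 and 10.1 RPKM in DMSO and 11.9 and 11.7 RPKM in JQ1 in SU-DHL-5, and at 17.5 and 19 RPKM and 19.6 and 20.2 RPKM in Toledo. Its JQ1 libraries were above in both lines by small ratios of 0.15 (0.08 to 0.23) and 0.13 (0.07 to 0.19), while POLE2 was at -1.26 and -1.47. POLD2, another subunit of polymerase delta, was at -0.33 in SU-DHL-5 and overlapped in Toledo (ratio 0.08), and it had the largest difference of a member in that direction, 0.41 on the log2 scale.

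FEN1, the flap nuclease, was at -0.40 and -0.36 and below DMSO without overlap in both lines. LIG1, the ligase, overlapped in SU-DHL-5 and was at -0.07 in Toledo. Of the nucleotide enzymes, RRM1 and RRM2, the subunits of ribonucleotide reductase, were below in both lines, at -0.38 and -0.37 for RRM1 and at -0.15 and -0.29 for RRM2, which shares 27.9% of its exonic bases with AC007240.1 on the same strand. TYMS, thymidylate synthase, stood at 289 and 313 RPKM in DMSO and 292 and 297 RPKM in JQ1 in SU-DHL-5, with overlap, and at 169 and 173 RPKM and 131 and 129 RPKM in Toledo, without overlap (ratio -0.39). ENOSF1 on the opposite strand shares 58.2% of the exonic bases of TYMS. TK1, thymidine kinase, was above DMSO in SU-DHL-5, at 135 and 142 RPKM in DMSO and 156 and 160.0 RPKM in JQ1 (ratio 0.19). In Toledo TK1 was below, at 60.6 and 53.3 RPKM in DMSO and 44.1 and 46.7 RPKM in JQ1 (ratio -0.33).

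Between lines, 36 of 47 members (76.6%) had a lower ratio in Toledo than in SU-DHL-5, beside 64.2% of all genes. The median difference, Toledo minus SU-DHL-5, was -0.14 for members and -0.10 for all genes tested in both lines. For members it became -0.06 after scaling each line by its median ratio, -0.07 without DMSO library 2 of Toledo and -0.21 without DMSO library 1. Scaling takes the median ratio of a line off every gene alike, so it moves the median difference of all genes by about as much as that of members. The medians of all genes without a DMSO library were not computed, so a shift shared by all genes cannot be told apart there. In 7 members (14.9%), namely ORC2, ORC6, GMNN, RFC5, RPA2, PRIM1 and TK1, both JQ1 libraries were above DMSO in SU-DHL-5 and below it in Toledo, a pattern of 4.9% of all genes. The reverse pattern was found for 0 members and for 2.02% of all genes. PRIM1, the catalytic primase subunit, stood at 31.2 and 34.7 RPKM in DMSO and 38.1 and 41.7 RPKM in JQ1 in SU-DHL-5, and at 31.1 and 33.9 RPKM and 29 and 30.4 RPKM in Toledo, and it shares 26.0% of its exonic bases with AC117378.1 on the same strand. RFC5, a subunit of the clamp loader, stood at 35.4 and 38.2 RPKM in DMSO and 39.5 and 40.4 RPKM in JQ1 in SU-DHL-5, and at 36.5 and 36.4 RPKM and 33.3 and 33.1 RPKM in Toledo. RPA2 stood at 53.6 and 53.1 RPKM in DMSO and 56.2 and 55.1 RPKM in JQ1 in SU-DHL-5, a step of 0.06 on the log2 scale, and at 58.8 and 56.4 RPKM and 49.7 and 45.1 RPKM in Toledo. Most of these 7 genes thus moved little in SU-DHL-5, with ORC6 and PRIM1 the farthest above DMSO. After centring on feature length, the ratio of PRIM1 in Toledo moved from -0.13 to -0.01 and that of RFC5 from -0.13 to -0.02. The 4 members above DMSO in both lines were ORC4, ORC5, GINS4 and POLE, which is 8.51% of members beside 24.4% of all genes.

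**Figure D3:**
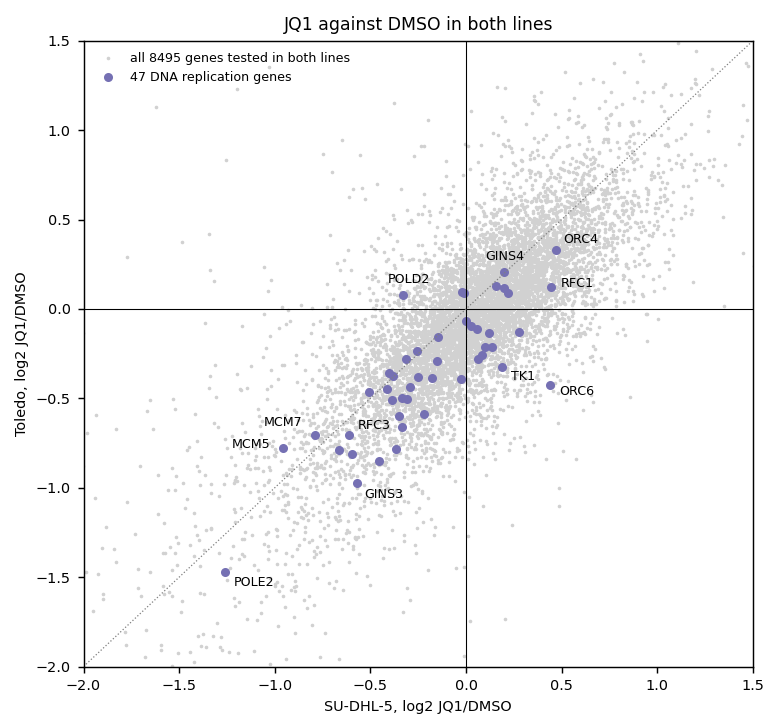
The log2 ratio of JQ1 to DMSO in SU-DHL-5 (horizontal) and Toledo (vertical) for the 47 replication genes (purple) and all 8495 genes tested in both lines (grey, those beyond the axes not drawn), with a dotted line of equal ratios. Most members lay in the lower left part, POLE2 farthest out, and ORC6 and TK1 lay in the lower right.

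The level before treatment also differed between lines, which are different tumours and differ in more than 1 way. In DMSO, 19 members (40.4%) were at least 1.5-fold lower in Toledo than in SU-DHL-5 without overlap of libraries, beside 21.5% of all genes, and 5 members (10.6%), ORC6, CDC6, CDT1, GINS2 and POLE, were higher by the same rule, beside 21.5%. The median log2 of Toledo over SU-DHL-5 was -0.42 for members and -0.02 for all genes. At the extremes, RPA1 stood at 87.7 and 84.7 RPKM in SU-DHL-5 and at 23.1 and 26.1 RPKM in Toledo, a log2 of -1.81, and GINS2 was higher in Toledo by 1.33. In SU-DHL-5 the highest levels in DMSO were those of PCNA and TYMS and the lowest those of ORC4 and ORC3. In Toledo the highest were GINS2 and MCM7 and the lowest ORC4 and ORC2, whose libraries at 4.00 and 4.47 RPKM and at 4.48 and 5.23 RPKM did not overlap but nearly met.

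**Figure D4:**
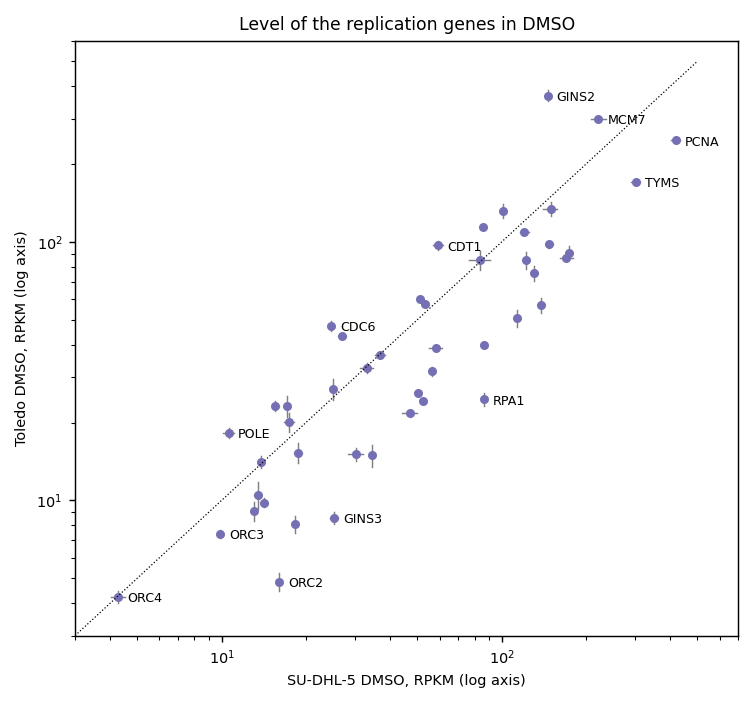
Level of the 47 replication genes in DMSO, RPKM on log axes, in SU-DHL-5 (horizontal) and Toledo (vertical), with points at sample means, bars from the lower to the higher library and a dotted line of equal levels. More members lay below the line than above it, with RPA1, ORC2 and GINS3 far below and GINS2 and CDC6 above.

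In the transcript table, the most abundant transcript of a member had the sign of the gene's ratio for 44 of 47 members for SU-DHL-5 and 45 for Toledo. For 14 members 1 transcript was listed, and ORC4 had the most, 7. The transcript and gene ratios differed most for POLE2 in SU-DHL-5, by 0.30, and for MCM10 in Toledo, by 0.42. The main transcript of POLE2, with 76.8% of the summed RPKM, was at -0.96 and -1.45, and its second transcript, at 2.46 and 3.63 RPKM in DMSO in SU-DHL-5, was at -2.16 and -2.63. For MCM7, the main transcripts with 55.7% and 43.9% of the level were both lower in both lines, from -0.60 to -0.90.

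Other factors of the fork and origin, which are not among the 47 genes, were examined alongside. Of 25 such genes measured, 60.0% lay below DMSO without overlap for SU-DHL-5 and 56.0% for Toledo, beside 57.4% and 76.6% of the 47 members. The share in SU-DHL-5 was thus no trait of the members alone, since it was also 66.7% in the list of E2F, RB and checkpoint regulators, 68.0% for nucleotide supply and 57.9% for mitosis. In Toledo these lists had 77.8%, 68.0% and 47.4%. By size, 2 were called lower and 2 higher in SU-DHL-5, and 3 lower and 1 higher in Toledo, with median ratios of -0.15 and -0.21. The lowest were RNASEH2B, at -1.16 and -0.98, TIPIN of the fork protection complex, at -0.53 and -0.88, and MTBP, a firing factor, at -0.59 and -0.81. The highest were RNASEH2C, at 1.45 and 1.14, POLE4, at 0.97 and 0.41, and CHTF8, part of an alternative clamp loader, at 0.38 and 0.44. RNASEH2B and RNASEH2C are subunits of 1 enzyme, which removes ribonucleotides from DNA, and were 2.61 (SU-DHL-5) and 2.12 (Toledo) apart. RNASEH2C stood at 22.4 and 22.2 RPKM in DMSO and 59.0 and 63.1 RPKM in JQ1 in SU-DHL-5. With POLE4, an accessory subunit, included, polymerase epsilon was spread over 2.24 and 1.88, against 0.20 and 1.08 for polymerase delta with POLD4.

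Of 18 genes for E2F, RB and checkpoint regulators, 3 (16.7%) were called lower for SU-DHL-5 and 6 (33.3%) for Toledo, beside 12.1% and 15.8% of all genes. None was called higher, beside 8.72% and 6.68% of all genes, and the medians were -0.15 and -0.45. The lowest were E2F8, a repressor of the family, at -1.04 and -1.10, E2F2, an activator, at -1.02 and -0.90, and CDC25A, the phosphatase that activates cyclin-dependent kinases, at -0.71 and -0.98. E2F2 stood at 11.9 and 9.93 RPKM in DMSO and 5.31 and 5.35 RPKM in JQ1 in SU-DHL-5, and at 17.1 and 19.2 RPKM and 9.55 and 9.79 RPKM in Toledo, without overlap. E2F1, named after its values were seen, was at 0.03 and -0.57. The highest were ATR, the kinase that senses stalled forks, at 0.36 and 0.26, LIN54 at 0.26 and -0.14, and E2F6 at 0.12 and -0.22.

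**Figure D5:**
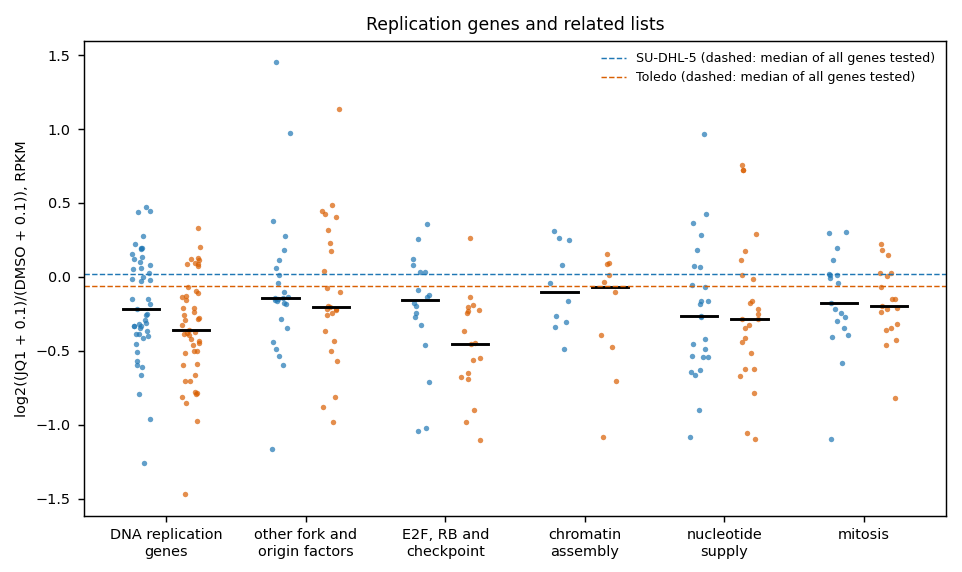
The log2 ratio of JQ1 to DMSO of each gene in the list of 47 replication genes and in 5 related lists, SU-DHL-5 in blue and Toledo in orange, with black bars at list medians and dashed lines at the medians of all genes tested. The medians of the replication genes were -0.22 and -0.36, and the lowest median was that of the E2F, RB and checkpoint list in Toledo, -0.45.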

How the data were processed

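RNA was measured in 4 samples of SU-DHL-5 and Toledo, each with 2 libraries. The values the authors deposited are RPKM, in a gene table and a transcript table, made from paired, trimmed reads of a stranded mRNA kit and scaled to feature length and mapped reads. The submitters' processing notes name CASAVA 2.0 and the build GRCh38 (hg38); the aligner, the counting, its use of strand and the annotation are not given in the sources used here. Positions overlapped those of GENCODE 29 for 99.8% of 29405 shared symbols, and overlaps between genes were taken from it.

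Whole reads were recovered from the RPKM values for 14942 of 14944 genes with a value (tolerance 0.02 reads), with mapped reads per library (median 16252335) set from genes of 1 exon. Exact binomial (Clopper-Pearson) 95% intervals of these reads cover counting error only. Genes had to reach a mean of 1 RPKM over the 4 libraries of a line, which left 9094 genes in SU-DHL-5, 9380 in Toledo and 8495 in both. With 1 sample per group there was no test within a line. JQ1 was tested over both lines with limma 3.58.1 in R 4.3.3 on log2(mean RPKM + 0.1) of the 4 samples (treatment, cell line as a block, trended prior, Benjamini-Hochberg adjustment), added after seeing the data. Samples of a line form a pair because they come from the same cell line. The steps were tested on simulated data.

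The members and lists were chosen with earlier results of these data known. Library values were given for members called in both lines, the 5 lowest and 5 highest by mean ratio, and the 2 highest and 2 lowest in DMSO of each line; called genes of 1 line with ratios at least 1.5-fold apart were also to be named, and none qualified. From each other list the 3 lowest and 3 highest were named. Library values of MCM6, ORC6, GMNN, POLE, PRIM1, RFC5, RPA1, RPA2 and TK1, and single ratios of further members, were added after their values were seen. Alternatives varied the pseudocount, the filter, the scaling, the fold, the libraries and the table. The software was Python 3.11.15 with pandas 2.3.3, numpy 2.4.6, matplotlib 3.10.9 and scipy 1.17.1.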

Additional observations from a re-analysis of the deposited data

Results flagged for a closer look

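In 7 replication genes every JQ1 library lay above every DMSO library in SU-DHL-5 and below every DMSO library in Toledo, and the difference between lines was not tested, because each group had 1 sample. The log2 ratio in Toledo minus that in SU-DHL-5 was -0.86 for ORC6, -0.52 for TK1, -0.40 for PRIM1, -0.35 for ORC2, -0.34 for RPA2, -0.31 for GMNN and -0.25 for RFC5. The same pattern was found for 416 of 8495 genes (4.9%). ORC6 was the member with the largest difference in this direction, and its ratios of 0.44 and -0.42 rested on 1435 and 1858 reads in SU-DHL-5 and on 2388 and 1702 reads in Toledo. Some margins were small. In Toledo the nearest libraries of ORC2 stood at 4.48 RPKM in DMSO and 4.38 RPKM in JQ1, and those of PRIM1 at 31.1 and 30.4 RPKM. The Toledo ratios of PRIM1 and RFC5 nearly vanished after centring on feature length. How many of the 7 keep the pattern after scaling or centring was not counted.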

How the results depend on the processing

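Of 101 counts and medians recomputed under alternatives, 96 stayed within 1.5 times the reported count or within the spread between libraries, and 5 did not. With the cell line as a replicate block in limma, 20 members were lower over both lines, by another rule than the 6 called by fold in each line. At a limit of 2-fold, 1 member was lower in SU-DHL-5, 1 in Toledo and 1 in both lines (2.13%, beside 2.52% of all genes in both), since fewer genes pass a stricter limit. Centred on feature length, the median of Toledo was -0.22 instead of -0.36, and the members called lower were 4 in SU-DHL-5 (8.51%, beside 12.1% of all genes), 9 in Toledo (19.1%, beside 13.5%) and 4 in both (8.51%, beside 6.76%). With library 1 alone, 7 members were lower in SU-DHL-5 (14.9%, beside 13.0% of all genes) and 8 in Toledo (17.0%, beside 15.1%), so that the excess in Toledo nearly vanished. With library 2 alone, 4 were lower in SU-DHL-5 (8.51%, beside 11.7%) and 13 in Toledo (27.7%, beside 18.6%). Of 458 ratios of 23 named members, 449 kept their sign, and the 9 that did not (RFC1, DBF4 and ORC3 in Toledo, ORC3 and TYMS in SU-DHL-5) had reported sizes of at most 0.12. For all genes, the median JQ1/DMSO ratio (linear scale) was 1.02 for SU-DHL-5 and 0.956 for Toledo. The limma fit, the alternatives that left out a DMSO library of Toledo, and all those of the counts of members below DMSO, were chosen after seeing the data. Depth limited POLE2 in Toledo most (645 reads in DMSO and 219 in JQ1), then GINS3 (694 and 334).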

Other observations

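Genes for nucleotide supply outside the 47 members were called in both directions. Of 25 genes tested, 5 were called lower and 1 higher in SU-DHL-5, and 6 lower and 3 higher in Toledo, with medians of -0.27 and -0.28. IMPDH1 and IMPDH2, which catalyse the same step toward guanine nucleotides, went opposite ways. IMPDH1 stood at 14.6 and 13.5 RPKM in DMSO and 6.55 and 6.61 RPKM in JQ1 in SU-DHL-5, and at 33.1 and 30.8 RPKM and 14.6 and 16.0 RPKM in Toledo (ratios -1.08 and -1.06). IMPDH2 stood at 227 and 247 RPKM in DMSO and 305 and 304 RPKM in JQ1 in SU-DHL-5, and at 246 and 242 RPKM and 396 and 429 RPKM in Toledo (ratios 0.36 and 0.76). NME1, a nucleoside diphosphate kinase, was at -0.64 and -1.10 and PFAS, an enzyme of purine synthesis, at -0.90 and -0.78. SAMHD1, which degrades deoxynucleotides, was at 0.97 and 0.72, and RRM2B, the ribonucleotide reductase subunit that p53 induces, at 0.43 and 0.72.

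Of 10 genes for chromatin assembly at the fork, none was called in SU-DHL-5 and 2, UHRF1 and CHAF1A, were called lower in Toledo. UHRF1, which brings DNA methylation to the new strand, was at -0.31 and -1.08, and CHAF1A, the large subunit of the histone chaperone CAF-1, at -0.49 and -0.71. RBBP4 was at -0.04 and -0.39, ASF1A at 0.31 and 0.15, SLBP at 0.25 and 0.09 and HAT1 at 0.08 and -0.03. Of 19 genes for mitosis, 1, UBE2C, which marks mitotic proteins for degradation, was called lower in each line, at -1.10 and -0.82. That is 5.26% of the mitosis list in each line, fewer than the 12.1% and 15.8% of all genes. PLK1 and AURKA, mitotic kinases, were at -0.58 and -0.46 and at -0.41 and -0.43, while BUB1, CENPE and KIF11 were at 0.30 and 0.22, 0.30 and 0.15, and 0.19 and 0.18. The medians of the mitosis list were -0.17 and -0.20.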
